A study of Mus musculus with 17 samples.

Results

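The transcripts described here are those of 26 genes of cholesterol synthesis, its control and linked steps, out of 55401 gene identifiers in the processed files. They are genes of sterol synthesis and of its control by the sterol regulatory element-binding proteins (SREBPs), listed by name with earlier results of these data known, and were found by Ensembl gene identifier. Of these, 5 lead from acetyl-CoA to mevalonate and its activated forms, 4 make isoprenoids or squalene, and 10 lead from squalene to cholesterol. A further 5 belong to SREBP control, and 2 act in sterol transfer and receptor turnover. All 26 passed the filter on low values in both sexes.

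RNA from whole perigonadal white adipose tissue (pWAT) of 17 C57BL/6J mice on standard chow was sequenced, with 1 library per mouse. The groups were 5 wild-type (WT) females, 5 U9-KO females, 3 WT males and 4 U9-KO males. U9-KO mice are homozygous for a whole-body deletion of all 5 exons of the long non-coding RNA *U90926*, and the WT mice were littermates from heterozygous parents. The methods give an age of 16 weeks at collection, and the schedule of screens gives 19 weeks for molecular work. The comparison asks whether loss of *U90926* changed these transcripts in either sex.

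Cells build cholesterol from acetyl-CoA through mevalonate, isoprenoids, squalene and lanosterol. When membranes run short of sterol, Scap escorts SREBP from the endoplasmic reticulum to the Golgi, where it is cut to release a transcription factor, and Insig proteins hold the complex back when sterol is plentiful. SREBP-2 mainly drives sterol synthesis and SREBP-1c mainly drives fatty acid synthesis, with overlap in their targets, and fat cells are known for the latter. *Fasn*, the fatty acid synthase and a target of SREBP-1c, serves below as the reference for that second arm.

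The promoters of many genes of sterol synthesis, though not of all 26 listed here, are known as sites where SREBP binds beside the general factors NF-Y and Sp1. RefSeq promoters on GRCm38.p6, each 250 bases before and 50 after a start, were found for 22 of the 26 genes. The NF-Y motif CCAAT, on either strand, was in a promoter of 20 of the 22 genes (90.9%), against 41.1% of 27025 genes with a promoter. The Sp1 motif GGGCGG was also in 20 of 22 (90.9%), against 38.2%. The E-box CACGTG was in 5 of 22 (22.7%), against 8.09%, and the sterol regulatory element TCACNCCAC was in 1 of 22 (4.55%), against 1.44%. These are matches of letters, not sites of binding. The 5 stretches below, each 150 bases long, upstream of a RefSeq start and outside annotated exons, are shown because *Hmgcs1* alone held the sterol element, *Mvd* and *Lss* followed *Fasn* closely, *Insig1* held an E-box, and the transcripts of *Scap* did not follow the others. Capitals mark CCAAT (read as ATTGG on the other strand), TCACNCCAC and CACGTG. Matches elsewhere in the promoters are not shown. Outside its stretch *Scap* also held CACGTG, *Insig1* held CCAAT, and *Hmgcs1* held further CCAAT.

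*Hmgcs1* (chr13:119690201-119690350, plus strand): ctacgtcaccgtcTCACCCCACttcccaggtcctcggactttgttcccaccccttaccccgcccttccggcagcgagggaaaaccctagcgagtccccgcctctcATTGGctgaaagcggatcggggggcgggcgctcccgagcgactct
*Mvd* (chr8:122443423-122443572, minus strand): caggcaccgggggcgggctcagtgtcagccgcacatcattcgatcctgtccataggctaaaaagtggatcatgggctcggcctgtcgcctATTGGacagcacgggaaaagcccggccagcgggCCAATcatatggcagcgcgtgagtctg
*Lss* (chr10:76531438-76531587, plus strand): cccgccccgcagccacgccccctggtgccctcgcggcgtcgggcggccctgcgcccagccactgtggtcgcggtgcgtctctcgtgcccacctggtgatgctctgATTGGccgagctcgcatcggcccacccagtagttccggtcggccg
*Insig1* (chr5:28071213-28071362, plus strand): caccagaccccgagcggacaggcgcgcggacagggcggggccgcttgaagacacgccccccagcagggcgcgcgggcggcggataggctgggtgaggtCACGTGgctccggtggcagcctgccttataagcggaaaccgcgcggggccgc
*Scap* (chr9:110333138-110333287, plus strand): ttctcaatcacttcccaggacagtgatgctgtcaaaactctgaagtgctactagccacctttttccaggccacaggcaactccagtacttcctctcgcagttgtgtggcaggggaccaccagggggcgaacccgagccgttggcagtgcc

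The estimated depth was 19.71 to 27.61 M reads per library. A normalized count is a read count divided by a size factor for its library and rounded by the authors to a whole number. *U90926* was at 0 in 15 of 17 libraries and at 1 in WT female 3 and WT male 2, so its level could not check the genotype labels. The adipocyte markers *Cfd*, *Fabp4* and *Adipoq* were abundant in every library (lowest 110741, 65303 and 27618), as adipose tissue should hold. Transcripts of the ovary stood apart in females. The summed normalized count of 6 steroidogenic ovary genes was 134417 in U9-KO female 1 and 113802 in WT female 4, between 3364 and 36090 in the other 8 females, and between 155 and 387 in males. Epididymis markers summed to at most 3 in males. In whole tissue, fewer cells of a type and less RNA per cell cannot be told apart.

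Per kb of exons, *Insig1* and *Srebf1* were the most abundant of the 26 genes, with mean normalized counts per kb of 2030 (*Insig1*) and 1829 (*Srebf1*) over the females. Over the males these were 2613 and 2440. *Fdps*, the farnesyl diphosphate synthase, was lowest, at 8.65 per kb in females and 5.97 in males. Its exons share 26.7% of their length with *Gm43738* on the same strand, so the counting mode used by the authors could leave reads of *Fdps* unassigned, and its values are uncertain. *Tm7sf2* shares 12.1% with *Vps51* in the same way. Levels in females and males stand side by side without a test, since each sex appears to have been normalized on its own.

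**Figure D1:**
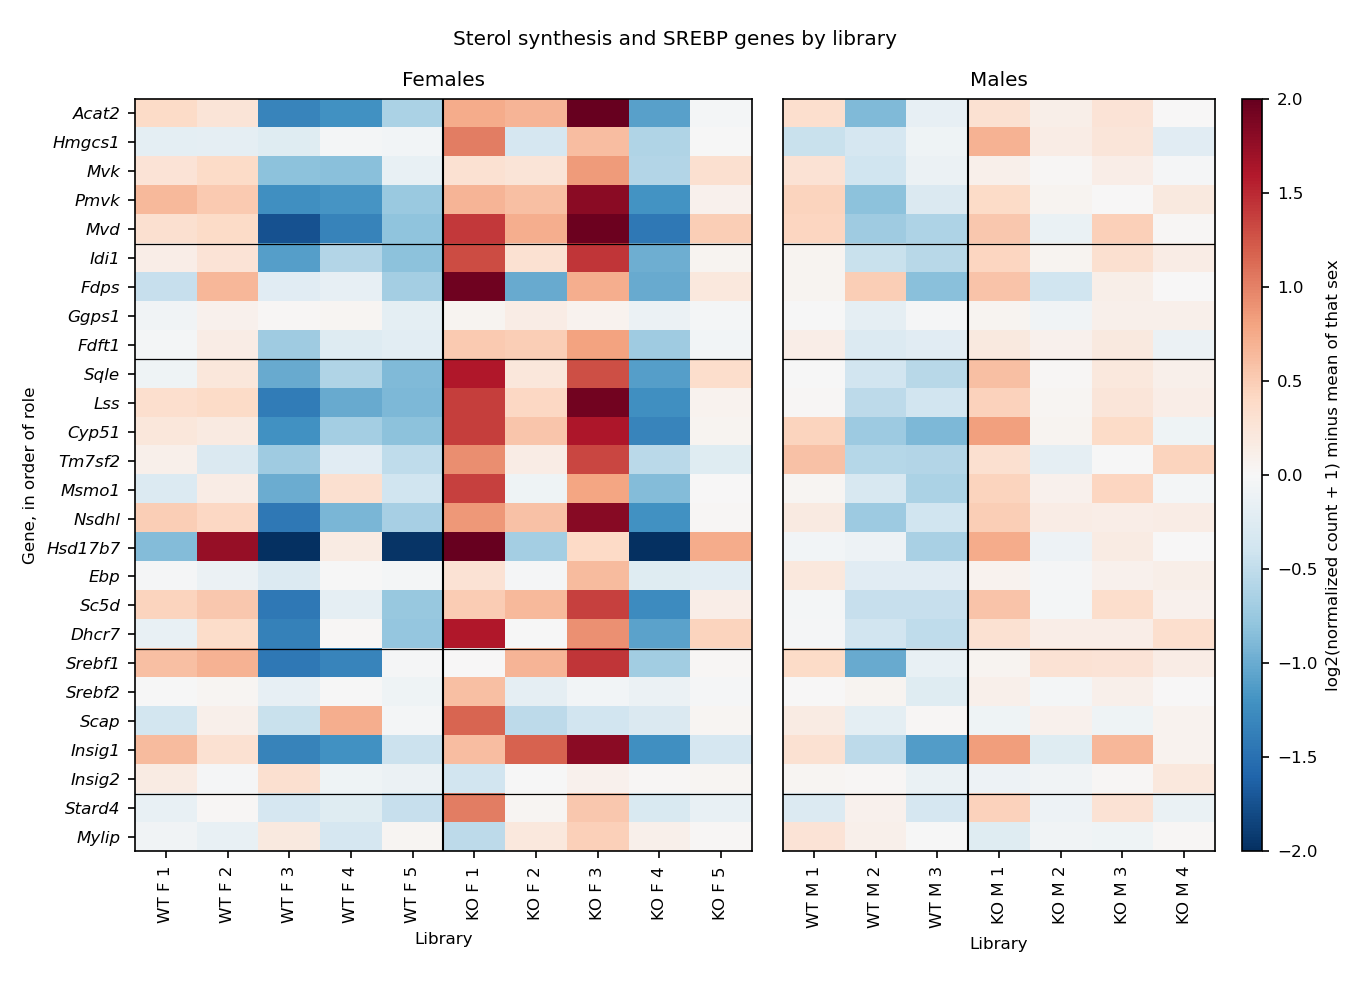
Each row is 1 gene and each column 1 library, with WT left of the vertical line and U9-KO right of it, and colour gives log2(normalized count + 1) minus the mean of that gene in that sex (colours stop at 2 either way). U9-KO females 1 and 3 are raised across most rows, WT female 3 and U9-KO female 4 are lowered across most rows, and *Ggps1*, *Srebf2* and *Insig2* vary little.

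Females of one genotype differed widely from each other. The mean deviation of the 26 genes from their female means (log2 scale) was 1.02 in U9-KO female 3 and 0.96 in U9-KO female 1. It was -0.86 in WT female 3 and -0.81 in U9-KO female 4. U9-KO females 2 and 5 had 0.19 and 0.08, and WT females 1, 2, 4 and 5 had 0.08, 0.27, -0.43 and -0.50. The lowest mice thus came from both genotypes, and the 2 highest were U9-KO mice. In males the range was narrower, from -0.39 in WT male 3 and -0.36 in WT male 2 to 0.35 in U9-KO male 1, with 0.14 in WT male 1 and 0.00, 0.20 and 0.07 in U9-KO males 2, 3 and 4.

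Among the mevalonate genes, *Hmgcs1*, the HMG-CoA synthase, had normalized counts of 4307, 4341, 4162, 4757 and 4712 in WT females 1 to 5. In U9-KO females 1 to 5 it had 9985, 3877, 7557, 3238 and 4901. The 5 WT females lay close together, and U9-KO females lay both above and below them. *Hmgcs1* was 3501, 3765 and 4458 in WT males and 7697, 5239, 5642 and 4054 in U9-KO males, where only U9-KO male 4 fell within the WT range. Its log2 fold change, on log2(normalized count + 1), was 0.28 (SE 0.26, n = 5 and 5) in females and 0.50 (SE 0.18, n = 3 and 4) in males. The limma adjusted p, over all genes, was 1 in females and 0.614 in males. The log2 fold change of *Hmgcs1* in females was 0.062 without U9-KO female 1 and 0.47 without U9-KO female 4.

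*Acat2*, a thiolase at the entry to the pathway, was 3883, 3557, 1189, 1284 and 1927 in WT females and 4954, 4746, 13975, 1403 and 2878 in U9-KO females. U9-KO female 3 was the highest mouse and the groups overlapped. In males the values of *Acat2* were 4421, 1897 and 3118 in WT and 4307, 3783, 4203 and 3523 in U9-KO mice, again with overlap. The mevalonate kinase *Mvk*, the phosphomevalonate kinase *Pmvk* and the decarboxylase *Mvd* differed between genotypes by 0.46, 0.79 and 1.27 in females (log2 fold change) and by 0.13, 0.38 and 0.53 in males. The groups of all 3 overlapped in both sexes, and none of the 3 passed the limma test (adjusted p 1 in females, 0.666 to 0.818 in males).

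Of the isoprenoid genes, *Idi1*, the isopentenyl diphosphate isomerase, was 1874, 1330 and 1233 in WT males and 2436, 1893, 2264 and 2014 in U9-KO males. Every U9-KO male was above every WT male. In females *Idi1* was 1679, 1845, 709, 1024 and 863 in WT and 3783, 1895, 4106, 773 and 1585 in U9-KO mice, and the groups overlapped. Its log2 fold change was 0.56 (SE 0.14, limma adjusted p = 0.612) in males and 0.84 (SE 0.44, limma adjusted p = 1) in females. *Fdft1*, the squalene synthase, had 0.22 in males and 0.43 in females, and *Ggps1*, which makes the lipid anchor of small GTPases, had 0.12 and 0.05.

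Of the enzymes from squalene to cholesterol, *Sqle*, the squalene epoxidase and a slow step of the pathway, was 736, 563 and 503 in WT males and 1118, 754, 852 and 795 in U9-KO males. *Lss*, the lanosterol synthase, was 948, 647 and 719 in WT males and 1289, 961, 1100 and 1029 in U9-KO males. *Dhcr7*, the reductase of the last step, was 426, 334 and 304 in WT males and 535, 474, 478 and 550 in U9-KO males. For each of the 3 every U9-KO male was above every WT male, and the closest pair was U9-KO male 2 and WT male 1 for *Sqle* and *Lss*.

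The log2 fold changes in males were 0.55 (SE 0.16) for *Sqle*, 0.52 (SE 0.14) for *Lss* and 0.53 (SE 0.12) for *Dhcr7* (n = 3 and 4). The limma adjusted p was 0.612 for all 3. Their mean normalized counts, WT against U9-KO, were 601 ± 121 and 880 ± 164 for *Sqle*, 771 ± 157 and 1095 ± 141 for *Lss*, and 355 ± 63.6 and 509 ± 38.9 for *Dhcr7* (SD). In females the groups overlapped for all 3: *Sqle* was 640, 798, 340, 448 and 369 in WT and 2077, 796, 1671, 316 and 869 in U9-KO mice. *Lss* was 1375, 1413, 410, 543 and 585 in WT and 2842, 1443, 4160, 466 and 1148 in U9-KO females. *Dhcr7* was 726, 1034, 314, 821 and 468 in WT and 2435, 801, 1521, 382 and 1099 in U9-KO females. U9-KO female 4 lay below all but 1 WT female for *Lss* and *Dhcr7*, and below all for *Sqle*.

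**Figure D2:**
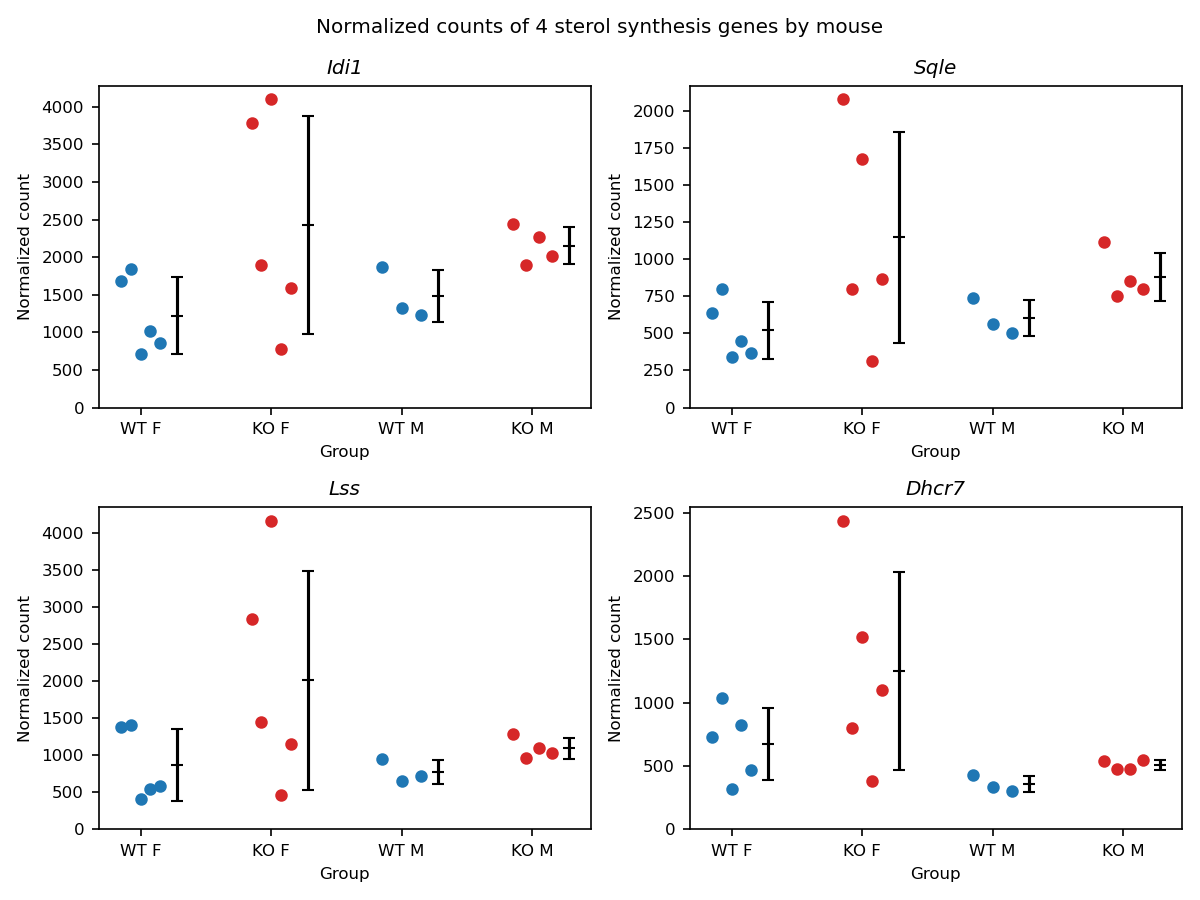
Points are the normalized counts of single mice (vertical axis, from 0) in the 4 groups (horizontal axis, F female and M male), and the bar beside each group is its mean with the SD. In males the U9-KO points of *Idi1*, *Sqle*, *Lss* and *Dhcr7* lie above all WT points, while in females both genotypes reach down to the same low levels.

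The remaining 7 enzymes of this stretch were the sterol demethylase *Cyp51*, the reductase *Tm7sf2*, the oxidase *Msmo1*, the dehydrogenase *Nsdhl*, the ketosteroid reductase *Hsd17b7*, the isomerase *Ebp* and the desaturase *Sc5d*. Their log2 fold changes were all above 0, from 0.18 (*Ebp*) to 1.23 (*Hsd17b7*) in females and from 0.14 (*Ebp*) to 0.68 (*Cyp51*) in males, and none passed the limma test. *Hsd17b7* varied most: it was 362, 2214, 148, 746 and 170 in WT females and 16511, 412, 874, 164 and 1109 in U9-KO females. The value of U9-KO female 1, a library rich in ovary transcripts, stood far above the rest. Without it the log2 fold change of *Hsd17b7* in females was 0.23. In males *Hsd17b7* lay between 284 and 744.

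Among the controllers, *Srebf1* encodes SREBP-1 and *Srebf2* SREBP-2. *Srebf1* was 13255, 14156, 3242, 3485 and 8590 in WT females and 8785, 13941, 23376, 5399 and 8793 in U9-KO females. *Srebf2* was 2162, 2234, 1946, 2164 and 2062 in WT females and 3320, 1916, 2104, 2003 and 2132 in U9-KO females. The 2 genes differed in spread: *Srebf1* had an SD of 0.92 on the log2 scale over the 10 females and *Srebf2* 0.23, with U9-KO female 1 the only *Srebf2* value above 2234.

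In males *Srebf1* was 17276, 6576 and 11979 in WT and 13760, 16186, 15887 and 14574 in U9-KO mice, and *Srebf2* was 1980, 2040 and 1659 in WT and 2098, 1902, 2107 and 1977 in U9-KO mice. The groups of both genes overlapped. *Insig1*, a retention protein that is itself an SREBP target, was 7584, 6021, 1930, 2113 and 3641 in WT females and 7492, 11054, 17020, 2079 and 3849 in U9-KO females. It was 9156, 5151 and 3414 in WT males and 13177, 6260, 11698 and 7727 in U9-KO males. The log2 fold change of *Insig1* was 0.81 (SE 0.56) in females and 0.77 (SE 0.33) in males, and it did not pass the limma test in either (adjusted p = 1 and 0.632). Its relative *Insig2* had -0.10 and 0.04, and *Scap* 0.01 and -0.0011.

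*Stard4*, a carrier of sterol between membranes, had a log2 fold change of 0.47 in females and one of 0.31 in males. *Mylip* encodes the ligase that marks lipoprotein receptors for destruction and is a target of the oxysterol sensors, not of SREBP. It was 1523, 1358 and 1260 in WT males and 1060, 1199, 1187 and 1286 in U9-KO males, so that U9-KO male 4 alone lay inside the WT range. Its log2 fold change was -0.22 (SE 0.09, limma adjusted p = 0.631) in males and 0.13 (SE 0.17, limma adjusted p = 1) in females.

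Over the 26 genes, the log2 fold change in females was above 0 for 25 and below 0 for *Insig2*, with a median of 0.57 beside 0.00 over 24825 genes tested. At a limma adjusted p under 0.05, 0 of the 26 passed, and 0% of all genes did. At an unadjusted p under 0.05, 0 of the 26 passed, against 2.23% of all genes, and the smallest was that of *Sqle* (log2 fold change 0.94, SE 0.45, limma adjusted p = 1). This count rose to 16 of 26 without U9-KO female 4 (1225 of 24492 genes), and was 6 when all 17 mice shared 1 fit (822 of 26289 genes). The 95% interval of *Sqle* ran from -0.04 to 1.92. None of the 26 had groups without overlap, against 0.238% of all genes (0.169% with U9-KO higher). By role, the median in females was 0.79 for the mevalonate genes, 0.38 for the isoprenoid genes, 0.79 for the enzymes from squalene on and 0.09 for SREBP control. The median was 0.41 without the libraries richest in ovary transcripts, and 0.37 without U9-KO female 3, the mouse highest in these genes, and 0.85 without U9-KO female 4.

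In males, 24 of the 26 were above 0 and *Mylip* and *Scap* below it, with a median of 0.43 beside 0.00 over 21930 genes. Again 0 of the 26 passed at a limma adjusted p under 0.05, and 0% of all genes did. The paper, which used DESeq2, reports differentially expressed genes in males and in females at an adjusted p under 0.05. At an unadjusted p under 0.05, 11 of the 26 passed, against 7.6% of all genes. This count was 18 without WT male 1 (3345 of 21467 genes), 7 without WT male 3 (1259 of 21530), 6 with no mean-variance trend (1500 of 21930) and 0 when all 17 mice shared 1 fit (1112 of 26289). Of the 11, *Hmgcs1*, *Idi1*, *Sqle*, *Lss*, *Msmo1*, *Nsdhl*, *Hsd17b7*, *Sc5d*, *Dhcr7* and *Insig1* had the higher mean in U9-KO mice and *Mylip* the lower. The smallest unadjusted p was that of *Dhcr7* (log2 fold change 0.53, limma adjusted p = 0.612). The groups of 4 genes did not overlap, all with U9-KO higher, against 3.8% of all genes (7.6% in either direction). These lie on GRCm38 at chr13:8885501-8892451 (*Idi1*), chr15:59315077-59331192 (*Sqle*), chr10:76531588-76557138 (*Lss*) and chr7:143823145-143848410 (*Dhcr7*), all on the plus strand. By role, the median in males was 0.41 for the mevalonate genes, 0.19 for the isoprenoid genes, 0.53 for the enzymes from squalene on, of which 7 of 10 passed at an unadjusted p under 0.05, and 0.10 for SREBP control.

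Leaving out 1 WT male changed these calls. Without WT male 1, which left 2 WT males, *Idi1* (0.74), *Nsdhl* (0.79) and *Dhcr7* (0.67) passed with limma adjusted p of 0.0415, 0.0449 and 0.0415, as did 71 genes in all. Without any other male 0 of the 26 passed. With *Fasn* as a covariate the median was 0.17 in males and 0.20 in females. Macrophage markers differed in the same males: 7 of 7 had a lower mean in U9-KO mice and none passed, with sums from 8335 to 11256 against 10025 to 16887 in WT mice. Of the T cell markers 6 of 6, and of the B and plasma cell markers 5 of 6, had lower means too, and none passed. In females 6 of 7 macrophage markers and 5 of 5 mesothelial markers had lower means in U9-KO mice. There 5 of 5 endothelial, 5 of 6 B and plasma cell and 4 of 6 T cell markers had higher means, and none of these passed. The part of these markers in the result was not tested.

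**Figure D3:**
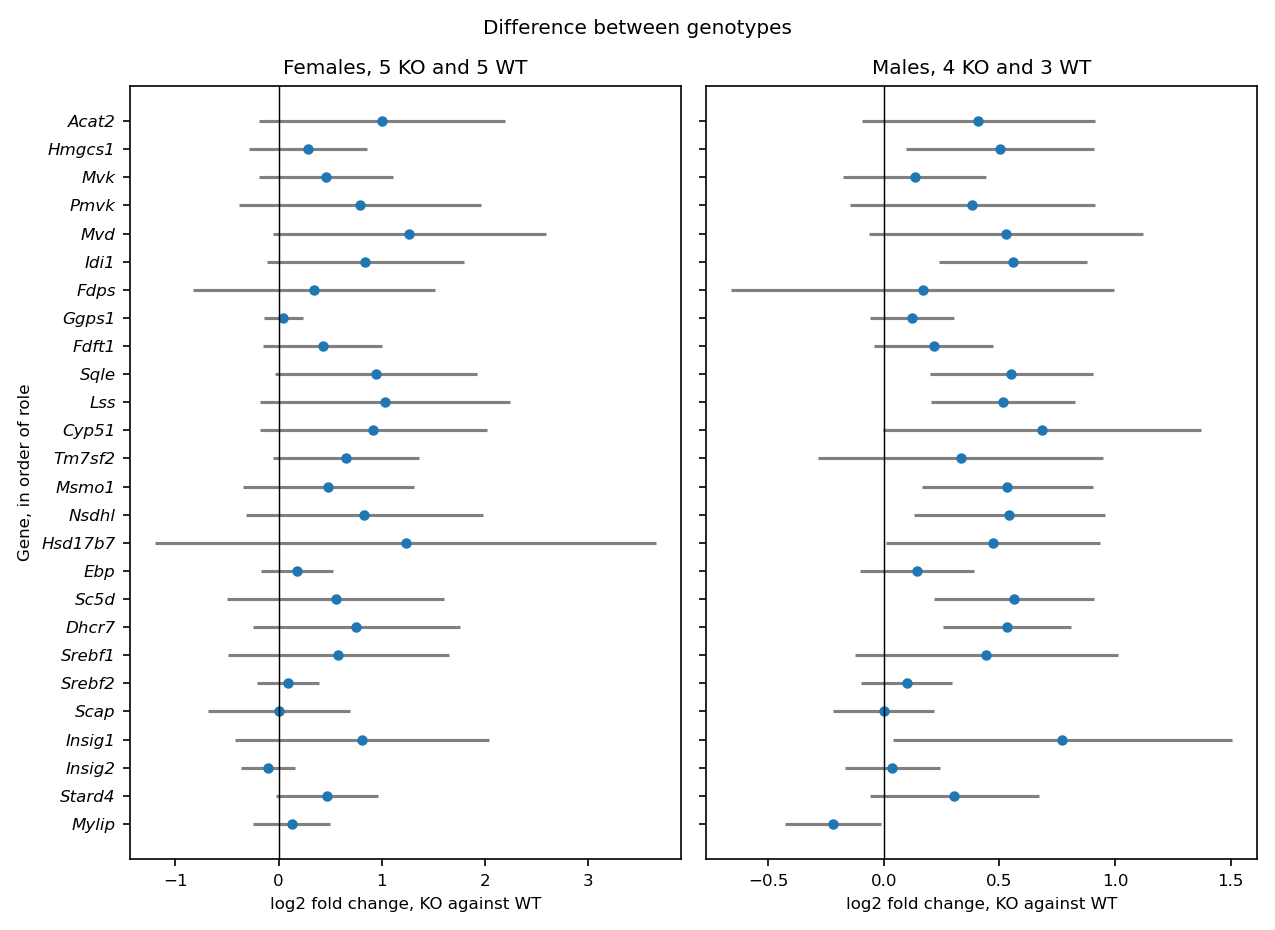
Points are log2 fold changes of U9-KO against WT mice on log2(normalized count + 1), with bars for the limma 95% interval, for the 26 genes from top to bottom in order of role. In females the interval of every gene includes 0, and in males the intervals of 11 genes exclude 0 before adjustment, 10 of them on the higher side.

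The difference between sexes was tested as an interaction over all 17 mice. The log2 fold change was lower in males than in females for 20 of the 26 genes, with a median difference of -0.22, beside 0.00 over 26289 genes. At a limma adjusted p under 0.05, 0 of the 26 passed, and 0% of all genes did. At an unadjusted p under 0.05, 0 of the 26 passed, against 3.46% of all genes. The smallest was *Mylip*, with a difference of -0.35 (95% interval -0.82 to 0.13, limma adjusted p = 1), so intervals this wide leave differences of either direction possible.

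Many of the genes varied together from mouse to mouse. In females the median Pearson's r over the 325 pairs of the 26 genes was 0.73, and 40.3% of pairs had an r of at least 0.8, against 2.28% of all pairs of 17792 genes with a mean of at least 10. In males these were 0.67 and 29.2%, against 2.59% of pairs of 16564 genes. These are descriptions over 10 and 7 mice, whose libraries and genotypes all genes share. In females *Idi1* (r = 1.00), *Lss* (0.99), *Cyp51* (0.99), *Sqle* (0.98) and *Mvd* (0.97) lay closest to the mean of the other 25 genes. In males *Idi1* (0.98), *Mvd* (0.97), *Cyp51* (0.97), *Sqle* (0.96) and *Lss* (0.96) did. *Insig2* (-0.45 in females, 0.16 in males), *Mylip* (-0.10, -0.40) and *Scap* (0.26, 0.19) lay apart in both.

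Against *Fasn*, which ran from 18029 in WT female 3 to 931443 in U9-KO female 3, many of the genes rose. With genotype in the fit, 13 of the 26 genes rose with *Fasn* over the 10 females at a limma adjusted p under 0.05, and 7.68% of all genes passed in either direction (4.86% rising, 2.82% falling). The median slope was 0.29 log2 units per log2 unit of *Fasn*, beside -0.01 over all genes. The 13 were *Acat2*, *Mvk*, *Pmvk*, *Mvd*, *Idi1*, *Fdft1*, *Sqle*, *Lss*, *Cyp51*, *Nsdhl*, *Sc5d*, *Srebf1* and *Insig1*. The steepest were *Mvd* (0.56, SE 0.05, adjusted p = 0.000241), *Insig1* (0.52, SE 0.05, adjusted p = 0.000667) and *Pmvk* (0.50, SE 0.05, adjusted p = 0.00031), each by limma. *Hmgcs1* (0.11, SE 0.07), *Srebf2* (0.03, SE 0.04), *Scap* (-0.01, SE 0.09) and *Ggps1* (0.02, SE 0.02) did not pass.

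Of the 26 genes, *Insig1* had the closest rank order to *Fasn* (Pearson's r = 0.95, Spearman's rho = 0.99 over 10 females, permutation p = 1e-05 for both, the smallest that 100000 resamples can give, adjusted 0.00322 and 0.00477 over 24824 genes). Its r was 0.95 as well without the females farthest from the median of *Fasn*, WT female 3 and U9-KO female 4. *Srebf1* had an r of 0.95 and a rho of 0.94 (permutation p = 5e-05 and 0.00019, adjusted 0.00463 and 0.0118), and 0.95 without these females. *Lss* had 0.92 and 0.92 (permutation p = 6e-05 and 0.00042, adjusted 0.00498 and 0.0163), and 0.88 without them. *Hmgcs1* had 0.49 and 0.27 (permutation p = 0.139 and 0.445, adjusted 0.347 and 0.675) and 0.28 without them, and *Srebf2* 0.30 and 0.16 (permutation p = 0.447 and 0.657, adjusted 0.674 and 0.822) and 0.08. Over the 26 genes the median r was 0.78, against -0.06 over all genes.

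Without the ovary-rich libraries, U9-KO female 1 and WT female 4, 16 of the 26 rose with *Fasn* in females. Leaving out single mice gave 9 to 14, the lowest without U9-KO female 4, when *Idi1*, *Fdft1*, *Sqle* and *Cyp51* no longer passed. The share of all genes that passed was not recorded for these fits, so these counts stand without it. Markers of other cell types went with *Fasn* in the same libraries. All 6 oviduct markers had slopes below 0 and *Ovgp1* passed, as did 3 of 5 muscle markers and *Wt1* of the mesothelium on the falling side, and so did *Cd68* of the macrophage markers, of which 5 of 7 had slopes below 0. On the rising side, 7 of 8 adipocyte markers had slopes above 0 and 2 passed, and 5 of 5 endothelial markers had slopes above 0 and *Cdh5* passed. Their part in the relation was not tested.

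**Figure D4:**
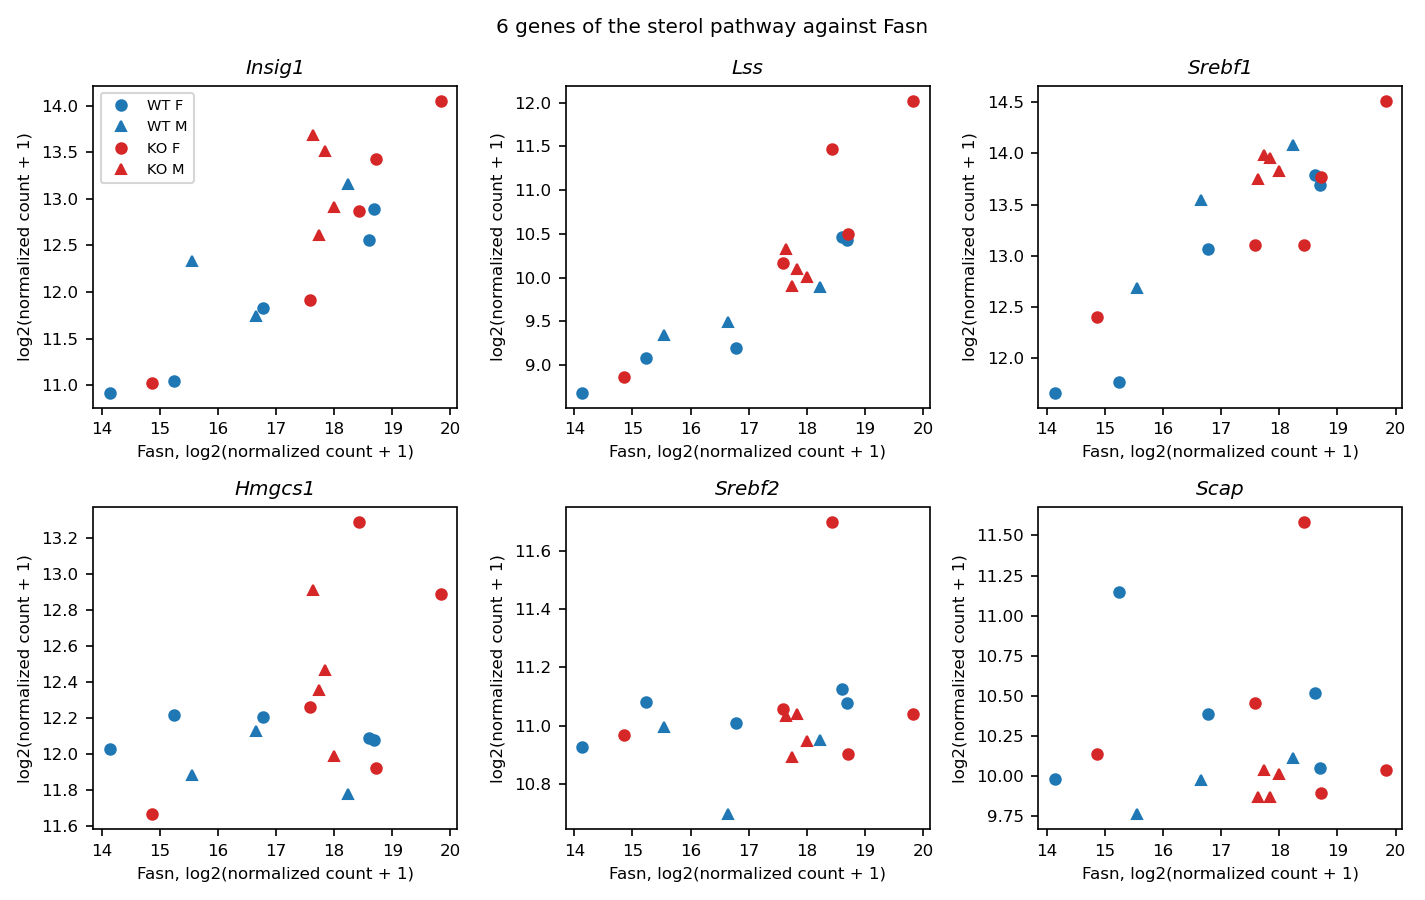
Each point is 1 mouse (circles female, triangles male, blue WT, red U9-KO), with log2(normalized count + 1) of *Fasn* on the horizontal axis and of the named gene on the vertical axis. In females *Insig1*, *Lss* and *Srebf1* rise with *Fasn*, whereas *Hmgcs1*, *Srebf2* and *Scap* have high points that do not follow it.

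In males *Fasn* was 308595, 47950 and 102942 in WT and 203465, 219208, 233541 and 261989 in U9-KO mice, so WT males 2 and 3 set the low end. With genotype in the fit, 5 of the 26 genes rose with *Fasn* at a limma adjusted p under 0.05 (*Acat2*, *Mvk*, *Pmvk*, *Nsdhl* and *Srebf1*), and 4% of all genes passed in either direction (2.07% rising, 1.93% falling). The median slope was 0.15. The slope of *Srebf1* was 0.50 (SE 0.07, limma adjusted p = 0.00531) and that of *Pmvk* 0.45 (SE 0.07, limma adjusted p = 0.00949). Without WT male 1, 0 of the 26 passed, and without WT male 2, 0 did. How many of all genes passed in these fits was not recorded.

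In males, correlations were recomputed without WT males 2 and 3, the mice farthest from the median of *Fasn*. *Acat2* had an r of 0.93 and a rho of 0.68 over 7 males (exact permutation p = 0.0113 and 0.11, adjusted 0.188 and 0.577 over 21929 genes), and 0.08 without them. *Lss* had 0.81 and 0.39 (exact permutation p = 0.0317 and 0.396, adjusted 0.251 and 0.779) and -0.67 without them. *Srebf1* had 0.96 and 0.86 (exact permutation p = 0.00298 and 0.0238, adjusted 0.146 and 0.397) and 0.63 without them, and *Ebp* 0.91 and 0.96 (exact permutation p = 0.00159 and 0.00278, adjusted 0.144 and 0.294) and 0.83. None of the 26 passed after adjustment, and 0% of all genes did. Of 7 macrophage markers, 6 had slopes on *Fasn* below 0 and 2 of these passed. Of 5 endothelial markers, 4 had slopes below 0 and 0 passed. All 6 T cell markers had slopes above 0 and 0 passed. Of 8 adipocyte markers, 7 had slopes above 0 and 1 passed. The part of these markers was not tested.

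*Scap* followed a different variable. It was 1060, 1466, 1009, 2268 and 1339 in WT females and 3067, 951, 1053, 1126 and 1406 in U9-KO females, highest in the libraries richest in ovary transcripts, and between 867 and 1108 in males. Against an ovary score, the mean log2 level of the 6 steroidogenic genes, and with genotype in the fit, 2 of the 26 genes passed at a limma adjusted p under 0.05, and 3.89% of all genes did (3.11% rising, 0.782% falling). *Scap* rose (slope 0.28, SE 0.03, limma adjusted p = 0.00105) and *Mylip* fell (slope -0.13, SE 0.03, limma adjusted p = 0.0393). All 8 adipocyte markers had slopes on this score below 0 (median -0.18) and *Adipoq* passed. All 5 endothelial markers had slopes below 0 and 0 passed. All 6 granulosa cell markers had slopes above 0 and 3 passed. The part of these markers was not tested. The r of *Scap* was 0.96 and its rho 0.89 (permutation p = 9e-05 and 0.0011, adjusted 0.0279 and 0.123), and its r was 0.87 without U9-KO female 1 and WT female 4. The r of *Mylip* was -0.83 and its rho -0.75 (permutation p = 0.0031 and 0.0175, adjusted 0.0849 and 0.275), and its r was -0.45 without them.

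Without those libraries 0 of the 26 genes passed the slope test on the ovary score, with slopes of 0.19 for *Scap* and -0.075 for *Mylip* (limma adjusted p = 1 for both). Leaving out single females gave 1 or 2: *Scap* passed in all 10 of these fits, while *Mylip* did not without WT female 3, 4 or 5 or U9-KO female 1, 2, 3 or 5 (limma adjusted p from 0.0562 to 0.479). How many of all genes passed in the fits without these mice was not recorded. When *Fasn* and the ovary score entered 1 fit together, 17 of the 26 passed for *Fasn*, against 13.2% of all genes, and 7 passed for the ovary score, against 8.47%. The 7 were *Msmo1* (0.25), *Hsd17b7* (0.86), *Dhcr7* (0.28), *Srebf2* (0.09) and *Scap* (0.29), which rose, and *Insig2* (-0.08) and *Mylip* (-0.13), which fell. *Msmo1*, *Hsd17b7* and *Dhcr7* also passed for *Fasn* there, with slopes of 0.25, 0.61 and 0.35. *Hsd17b7* is known to act on oestrone as well as on sterols.

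**Figure D5:**
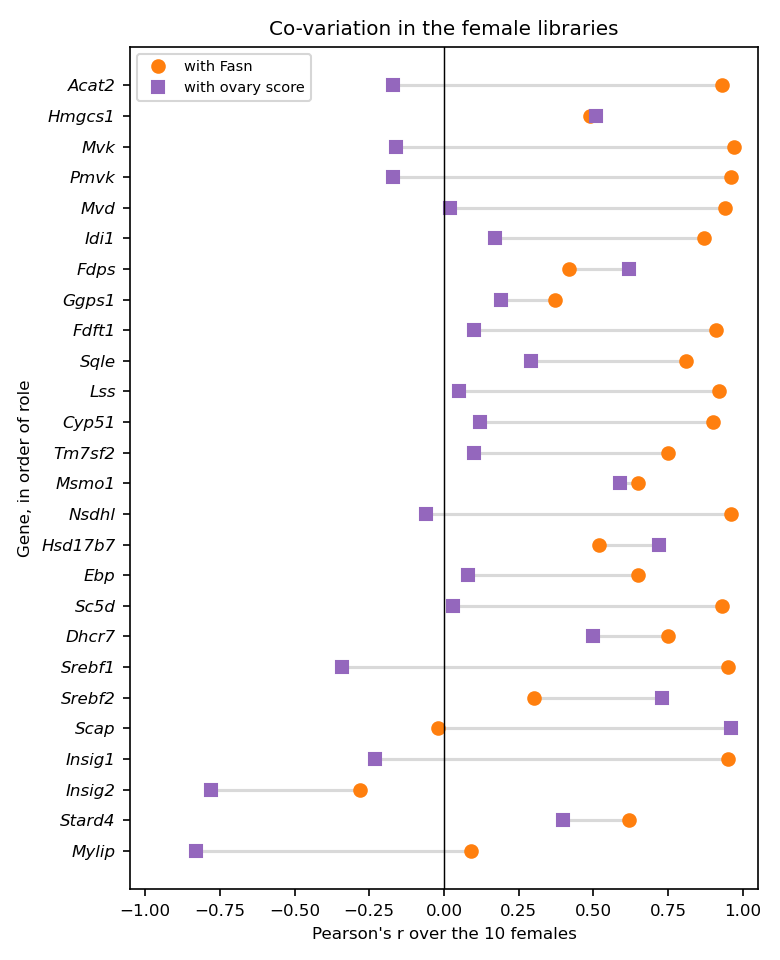
For each of the 26 genes, in order of role, the horizontal axis gives Pearson's r over the 10 females with *Fasn* (circles) and with the ovary score (squares). Genes such as *Lss* (0.92 and 0.05) lie at a high r with *Fasn* and near 0 with the ovary score, and *Scap* has an r of 0.96 with the ovary score and of -0.02 with *Fasn*.

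Genes of neighbouring pathways were measured in the same libraries. Of 18 fatty acid synthesis targets of SREBP-1c, 18 had a log2 fold change above 0 in females (median 0.73) and 17 in males (median 0.60), and 0 passed the limma test in either sex. The smallest unadjusted p were those of *Fads1*, a fatty acid desaturase, in females (0.31, limma adjusted p = 1) and of *Acaca*, the acetyl-CoA carboxylase, in males (1.00, limma adjusted p = 0.614). By normalized counts summed over all mice, not per length, *Scd1*, *Fasn* and *Acly* were its most abundant members, and in males *Thrsp* and *Acaca* exceeded *Acly*. With *Fasn* itself left out, 14 of 17 rose with *Fasn* in females and 12 of 17 in males at a limma adjusted p under 0.05, where 4.86% and 2.07% of all genes rose.

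Of 26 genes of sterol efflux, uptake and storage, 10 were above 0 in females and 6 in males, with medians of -0.05 and -0.10. *Lipa*, the lysosomal lipase, had the smallest unadjusted p in females (-0.21, limma adjusted p = 1) and *Nr1h2*, an oxysterol receptor, in males (-0.21, limma adjusted p = 0.612). *Apoe*, *Lrp1* and *Npc2* had the highest summed counts. Of 14 genes of SREBP processing and degradation, with *Vcp* and *Pgrmc1* among those of high summed count, 8 were above 0 in females and 10 in males (medians 0.01 and 0.05). *Mbtps1*, the first SREBP protease, had the smallest unadjusted p in females (-0.08, limma adjusted p = 1) and *Sec24a*, a coat protein of vesicles that leave the endoplasmic reticulum, in males (0.21, limma adjusted p = 0.629).

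Of 7 electron donors and helpers of late sterol steps, 6 were above 0 in females and 4 in males (medians 0.11 and 0.05), and *Erg28*, a scaffold of sterol demethylation, had the smallest unadjusted p in both (0.16, limma adjusted p = 1, and 0.32, limma adjusted p = 0.612). *Por*, *Cyb5a* and *Cyb5r3* had the highest summed counts. Of 13 genes of the non-sterol branches, which make dolichol, ubiquinone and prenyl anchors, 10 and 11 were above 0 (medians 0.02 and 0.07), with *Pdss2* (0.18, limma adjusted p = 1) and *Rabggtb* (0.14, limma adjusted p = 0.748) smallest. *Fnta*, *Nus1* and *Icmt* had the highest summed counts. No gene of these 4 lists passed after adjustment in either sex. On *Fasn* in females 1 of 26 genes of efflux, uptake and storage, 2 of 14 of SREBP processing and 2 of 13 of the non-sterol branches rose at a limma adjusted p under 0.05 (7.68% of all genes passed), among them *Npc2*, *Ufd1* and *Rce1*.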

How the data were processed

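RNA-seq of pWAT from 17 mice was analysed. Per the study's methods, stranded reads were aligned with STAR 2.7.3a to GRCm38 and counted per gene in Union mode (versions per the submitters' processing notes). The deposited values are a score: counts that the authors divided by DESeq2 1.28.1 size factors and rounded. Estimated depth was 19.71 to 27.61 M reads. The table of all libraries repeats these values and was not used. For 2 male libraries the replicate number in the column header differs from that in the labels, which were followed.

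Raw counts were not used. Genes with a total of at least 10 were fitted on log2(value + 1) with limma 3.58.1 (R 4.3.3, mean-variance trend), within each sex and, for the interaction, over all mice. A gene passed at a Benjamini-Hochberg adjusted p under 0.05 over all genes. Slopes had genotype in the fit. Permutation tests of correlations were two-sided (100000 resamples in females, all 5040 orders in males). Alternatives changed the pseudocount, filter, trend, scaling, samples and covariates. The fits were tested on simulated data. All 26 genes were named, plus the most abundant and lowest-p genes of neighbouring lists. Members and lists were chosen with earlier results of these data known. Further genes of the pathway are not reported here. P-values measure the spread between mice, and litters and batches were not given in the sources used here.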

Additional observations from a re-analysis of the deposited data

Results flagged for a closer look

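In groups of 4 or 5 mice, the highest or lowest mouse was compared with its neighbour by Dixon's criterion, over 78 sets of values of the 26 genes. This marked 8 values. Chance marks about 1 in 20 sets when sets are independent and normally distributed. These sets hold untransformed counts from shared mice, so that rate is only a rough guide. Of the 8 values, 4 came from U9-KO female 1, the library with most ovary transcripts. There *Hsd17b7* was 16511 (next highest 1109), *Srebf2* 3320 (next 2132) and *Scap* 3067 (next 1406), all highest of 5, and *Insig2* was 801, lowest of 5 (next 1037). In U9-KO female 3, the library highest in *Fasn*, *Acat2* was 13975 (next 4954). In WT female 2, *Hsd17b7* was 2214 (next 746) and *Fdps* was 47 (next 26). In U9-KO male 1, *Nsdhl* was 1343 (next 1059). The part of ovary transcripts in these values was not tested.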

How the results depend on the processing

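For U9-KO against WT mice, 0 genes in all and 0 of the 26 passed in each sex and for the interaction, except for 1 gene in females and 1 in males with no mean-variance trend, 1 for the interaction with no filter, and, on leaving out single males, 0 to 71 genes in all and 0 to 3 of the 26 (the highest without WT male 1). The median over the 26 in males ran from 0.33 to 0.67 on leaving out single males and was 0.17 with *Fasn* as a covariate. In 962 refits of single genes, 26 turned sign, none of them called (lowest adjusted limma p 0.736). With *Fasn* as a covariate in males *Acat2* had -0.011, *Mvk* -0.11, *Pmvk* -0.067, *Tm7sf2* -0.12, *Ebp* -0.026 and *Srebf1* -0.05. Without the ovary-rich libraries *Fdps* had -0.10, *Srebf2* -0.043 and *Scap* -0.10 in females, and *Scap* had -0.013 with the ovary score as a covariate. On leaving out single mice, *Scap* ran from -0.28 to 0.19, *Fdps* from -0.10 to 0.64 and *Srebf2* from -0.052 to 0.15 in females, and *Scap* from -0.096 to 0.081, *Mvk* from -0.026 to 0.31, *Fdps* from -0.20 to 0.46 and *Insig2* from -0.026 to 0.074 in males. The slope on *Fasn* in males passed for 11 of the 26 without the genotype term and for 0 to 5 on leaving out single males. The slope on the ovary score passed for 1 or 2 on leaving out single females, 0 without the ovary-rich libraries and 7 with *Fasn* as a covariate. The causes were not tested. For slope refits, here and with the block below, the share of all genes that passed was not recorded. The fit with both *Fasn* and the ovary score was the exception.

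With the replicate number as a block, 3 of the 26 passed on *Fasn* in females, 0 in males and 1 on the ovary score, and *Insig2* had -0.026 in males. The numbers gave no sign of pairing the mice. The deviations of same-numbered mice correlated at -0.45 to 0.11 in females and -0.12 to -0.01 in males, and no mouse correlated best with its own number. Larger differences between libraries could hide a pairing, so these values cannot settle whether the block is needed. Leaving out the ovary-rich libraries and *Fasn* as a covariate were alternatives chosen after seeing the data. With 3 WT and 4 U9-KO males, and SEs with a median of 0.27 in females and 0.20 in males over all genes, small differences were not detectable. Among the 26 genes the SEs in females ran from 0.09 (*Ggps1*) to 1.11 (*Hsd17b7*). *Mvd* (log2 fold change 1.27, SE 0.60) and *Lss* (1.03, SE 0.55) did not pass in females even at an unadjusted limma p under 0.05. Large differences in such genes could thus be missed as well.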
